A study of Mus musculus with 15 samples.

Results

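WNT ligands, their receptors and the secreted proteins that modulate them were followed in mouse embryonic fibroblasts (MEFs) of 5 groups on Affymetrix Mouse Exon 1.0 ST arrays, which measure the RNA of whole genes through probes in their exons. Members were picked by annotated symbol: every probe row that carries a single gene whose symbol is Wnt, Fzd, Sfrp, Dkk or Rspo with a number, together with Frzb, Wif1, Lrp5, Lrp6, Axin2, Lef1 and Tcf7. The rule found 45 rows, each of a different gene, among 16755 probe rows of which 14996 carry a single gene. They are 19 WNT ligands, 11 receptors (9 Frizzleds, Lrp5 and Lrp6), 4 R-spondins, 9 secreted inhibitors and the 2 response genes Axin2 and Lef1. The row that includes Dkk1 also carries other genes and was not used, and Fzd9 and Tcf7 had no row to analyse here.

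The groups had 3 arrays each. Mta1-KO MEFs came from embryos with both copies of Mta1 (a component of NuRD, a complex that remodels nucleosomes and deacetylates histones) disrupted, and Mta1-KO/Mta1 are Mta1-KO MEFs into which Mta1 was put back by transfection. P53-KO MEFs lack P53, and P53-KO/Mta1 are P53-KO MEFs that over-express Mta1. WT MEFs carry neither knockout. All were labelled C57BL/6J, and no drug or other treatment is given. Embryos were of day 9.0 for Mta1-KO/Mta1, Mta1-KO and WT and of day 12.5 for P53-KO/Mta1 and P53-KO. By the methods, the P53-KO MEFs were provided by another investigator, and WT and Mta1-KO MEFs had a separate source. P53 status, embryonic age and the origin of the MEFs thus cannot be told apart. The methods give biological replicates for all groups, the labels for WT, Mta1-KO and P53-KO. Neither states whether the replicates of a group were separate embryos, cultures or transfections, so the p-values reflect how far these arrays scatter.

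WNT proteins are lipid-modified signals that cells secrete to act on near neighbours. They bind a Frizzled receptor and, in the β-catenin branch, its partner LRP5 or LRP6, which lets β-catenin accumulate and act with TCF and LEF factors in the nucleus. R-spondins raise the amount of Frizzled at the cell surface, SFRPs, FRZB and WIF1 bind WNTs outside the cell, and most DKK proteins block LRP5 and LRP6. Fibroblasts both make and answer these signals, which pattern the mesenchyme of the embryo.

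Values are log2 values that the authors normalized and then set relative to each row's median across the arrays. A value of 1 is therefore a doubling over the median array, and the level of 1 gene cannot be set against another. A row that stays near 0 in all groups may belong to a silent gene or to a steadily expressed one. Array medians lay between -0.0165 and 0.0231, and Pearson's r between arrays of a group, across rows, between 0.868 and 0.961. The Mta1 row read -1.13, -1.35 and -1.28 in Mta1-KO/Mta1, -1.06, -1.08 and -1.10 in Mta1-KO, 0.65, 0.76 and 0.65 in P53-KO/Mta1, 0.36, 0.52 and 0.37 in P53-KO, and 0.08, -0.06 and 0 in WT. It was thus low in both Mta1-KO groups and no higher where Mta1 had been put back. The study also blotted Mta1 protein in all 5 groups, which was not analysed here. Where the probes of the row lie within Mta1 was not known, and directions for Mta1-KO/Mta1 rest on the labels. No row carries Trp53 alone. Of 12 fibroblast markers (among them Col1a1, Thy1 and Pdgfra), 6 were higher and 0 lower in Mta1-KO than in WT, and their mean per array ran from 0.315 to 0.344 in Mta1-KO against -1.22 to -1.14 in WT. That mean ran from -0.184 to -0.146 in Mta1-KO/Mta1, from -0.0661 to 0.0619 in P53-KO/Mta1 and from 0.520 to 0.644 in P53-KO. In P53-KO 8 of the 12 were higher and 1 lower than in WT, and in P53-KO/Mta1 2 were lower than in P53-KO. In Mta1-KO/Mta1 1 was lower than in Mta1-KO. Of 7 muscle markers with a row, 1 was lower with added Mta1 in each background, while 2 were higher in Mta1-KO against WT and 3 in P53-KO against WT. Of 9 endothelial markers 0 were called in any comparison, and of 8 each of blood, epithelial and neural cells at most 2 were called in any comparison. The mean of the fibroblast markers thus had Mta1-KO over WT and over Mta1-KO/Mta1, and P53-KO over WT and over P53-KO/Mta1. The mean of the muscle markers had that order too, with -0.0971 to 0.00617 in Mta1-KO, -0.597 to -0.401 in WT and -0.507 to -0.297 in Mta1-KO/Mta1. It ran from 0.732 to 0.814 in P53-KO and from 0.389 to 0.442 in P53-KO/Mta1. The neural mean did not, with -0.411 to -0.330 in Mta1-KO and 0.130 to 0.171 in WT. Many members below had the order of the fibroblast and muscle markers, and the part of the markers in those results was not tested.

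Most members read higher in P53-KO than in WT MEFs (41 of 45 had a positive log2 fold change) and, with Mta1 over-expressed, read below P53-KO (40 of 45 had a negative one). Lower in P53-KO than in WT were 8.89% of members and 42.6% of all rows. In P53-KO/Mta1 against P53-KO, 88.9% of members and 56.6% of all rows were lower. These counts take any size of change, and both comparisons use the same P53-KO arrays. Some members with small changes shared offsets of 1 array, so their signs are not independent. P53-KO replicate 2 read below replicates 1 and 3 for Wnt3a (0.34, -0.005 and 0.23), Wnt6 (0.42, 0 and 0.32) and Wnt9a (0.33, -0.02 and 0.35). For Fzd1 it did not (0.80, 1.29 and 1.14). A row is called changed below when its Benjamini-Hochberg adjusted p, from limma over all 16755 rows, was under 0.05 and its fold at least 2. In P53-KO/Mta1 against P53-KO, 7 of the 45 members (15.6%) were lower, where 1.22% of all rows were, and 0 were higher, where 0.394% of all rows were. In Mta1-KO/Mta1 against Mta1-KO, 2 members (4.44%) were lower and 0 higher, against 0.788% and 0.322% of all rows. In Mta1-KO against WT, 4 members (8.89%) were higher and 3 (6.67%) lower, against 4.23% and 2.41%. In P53-KO against WT, 13 (28.9%) were higher and 0 lower, while among all rows falls were the more frequent, 7.26% against 4.87% higher. The changes came from 15 members, and the other 30 were called in none of these comparisons. Since the members were chosen with earlier results of these data known, their shares beside all rows are a description and not a test. In bulk RNA, fewer expressing cells and less RNA per cell cannot be told apart.

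**Figure D1:**
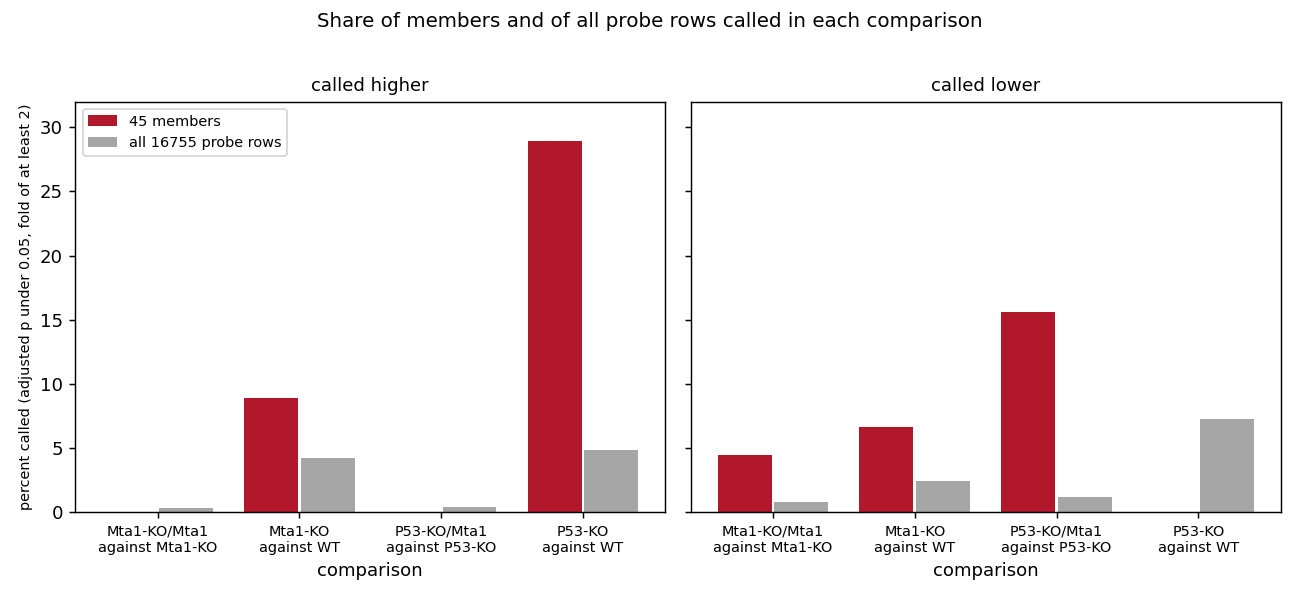
Percent of the 45 members (red) and of all 16755 probe rows (grey) called higher (left panel) or lower (right panel) in each comparison, on a linear axis from 0. The members' bar is well above that of all rows for P53-KO against WT, higher (28.9% against 4.87%), and for P53-KO/Mta1 against P53-KO, lower (15.6% against 1.22%). Members were chosen with earlier results of these data known.

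Without the minimum fold, the share of members past the adjusted p lay near that of all rows in most comparisons. It was 37.8% of members (17) against 40.2% of rows in Mta1-KO against WT, 26.7% (12) against 28.0% when Mta1-KO/Mta1 was set against Mta1-KO, and 57.8% (26) against 53.5% in P53-KO against WT. In P53-KO/Mta1 against P53-KO it was 42.2% (19) against 29.9%. The median log2 fold change of the members was -0.170 in P53-KO/Mta1 against P53-KO, beside -0.0224 for all rows. The members' median was -0.101 for Mta1-KO/Mta1 against Mta1-KO (all rows -0.0267), 0.10 in Mta1-KO against WT (all rows 0.0254) and 0.347 in P53-KO against WT (all rows 0.0381). The direction of the calls over all rows depended on scaling in part: with quantile normalization 50.2% of called rows were higher in Mta1-KO/Mta1 than in Mta1-KO, against 29.0% as deposited, and 35.1% against 24.4% in P53-KO/Mta1 against P53-KO. With that scaling 0 members were higher and 3 lower in Mta1-KO/Mta1 against Mta1-KO, 1 was higher and 5 lower in P53-KO/Mta1 against P53-KO, and 2 were higher and 3 lower in Mta1-KO against WT.

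**Figure D2:**
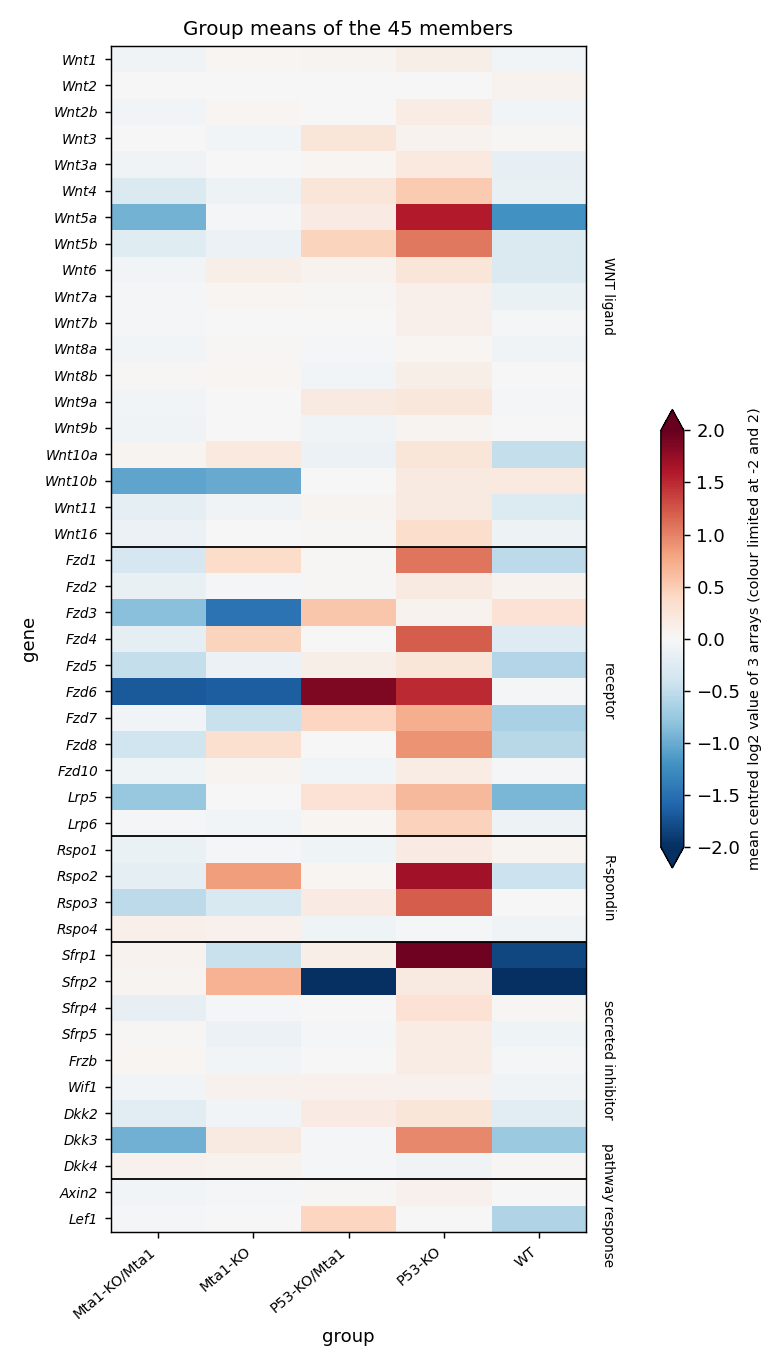
Mean centred log2 value of 3 arrays (colour, limited at -2 and 2) for each of the 45 members (rows, grouped by role) in the 5 groups (columns). The P53-KO column is the reddest, with Wnt5a, Rspo2 and Sfrp1 at its top end, while Sfrp2 is at its lowest in WT and P53-KO/Mta1.

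Sfrp2 and Sfrp1, which encode secreted proteins with a Frizzled-like domain that binds WNTs, had the largest changes of the family in P53-KO/Mta1 against P53-KO and in P53-KO against WT, and Sfrp2 also in Mta1-KO against WT, where Fzd3 and Fzd6 changed by more than Sfrp1. In Mta1-KO/Mta1 against Mta1-KO neither was called. Sfrp2 read 0.75, 0.66 and 0.67 in Mta1-KO, against -3.45, -3.69 and -3.53 in WT. Every Mta1-KO array stood far above every WT array, a 19-fold rise (log2 fold change 4.25, standard error 0.091, adjusted p = 8.86e-14). In Mta1-KO/Mta1 it read 0.19, 0.00 and 0.00, a log2 difference of -0.63 from Mta1-KO (adjusted p = 0.000143) that did not reach a fold of 2. In P53-KO/Mta1 it read -2.67, -2.28 and -2.54, against 0.19, 0.20 and 0.14 in P53-KO. Sfrp2 thus fell 6.39-fold where Mta1 was over-expressed without P53 (log2 fold change -2.67, standard error 0.091, adjusted p = 1.01e-10). P53-KO stood above WT by 3.74 on the log2 scale (adjusted p = 5.24e-13). Quantile normalization changed the rise in Mta1-KO to 3.24 and that in P53-KO to 2.70, and both calls held.

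Sfrp1 had another order of groups. It read -0.36, -0.57 and -0.41 in Mta1-KO, against -1.85, -1.65 and -1.97 in WT, a 2.60-fold rise (log2 fold change 1.38, standard error 0.093, adjusted p = 2.12e-08). Under quantile normalization that rise was 0.79 on the log2 scale, below a fold of 2 (adjusted p = 7.61e-06). In Mta1-KO/Mta1 it read 0.06, 0.00 and 0.13, all above Mta1-KO, by 0.51 on the log2 scale (adjusted p = 0.000870) and so less than a fold of 2. In P53-KO/Mta1 it read -0.03, 0.30 and 0.09, against 1.89, 1.99 and 1.97 in P53-KO, a 3.56-fold fall (log2 fold change -1.83, standard error 0.093, adjusted p = 6.17e-09). P53-KO was 13.7-fold above WT (adjusted p = 5.68e-13).

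Sfrp1 and Sfrp2 were the members whose response to added Mta1 differed between the backgrounds past both thresholds. The difference, the change in Mta1-KO/Mta1 against Mta1-KO minus that in P53-KO/Mta1 against P53-KO, was 2.34 for Sfrp1 (standard error 0.132, adjusted p = 4.32e-08) and 2.05 for Sfrp2 (standard error 0.129, adjusted p = 1.35e-07). For Sfrp1 the arrays moved up in the Mta1-KO background and down in the P53-KO background. For Sfrp2 they moved down in both, further in P53-KO. In this test 2 members (4.44%) had a positive difference past the thresholds and 0 a negative one, where 0.979% and 0.651% of all rows did. At the adjusted p alone 10 members (22.2%) passed, where 17.4% of all rows did. Rspo3 (0.83), Fzd7 (0.68), Rspo2 (0.60), Fzd4 (0.59), Wnt5a (0.51) and Lrp6 (0.46) were the others with a positive log2 difference, and Lef1 (-0.43) and Lrp5 (-0.39) those with a negative one. The backgrounds also differ in the age of the embryos, in the origin of the MEFs and in starting level.

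**Figure D3:**
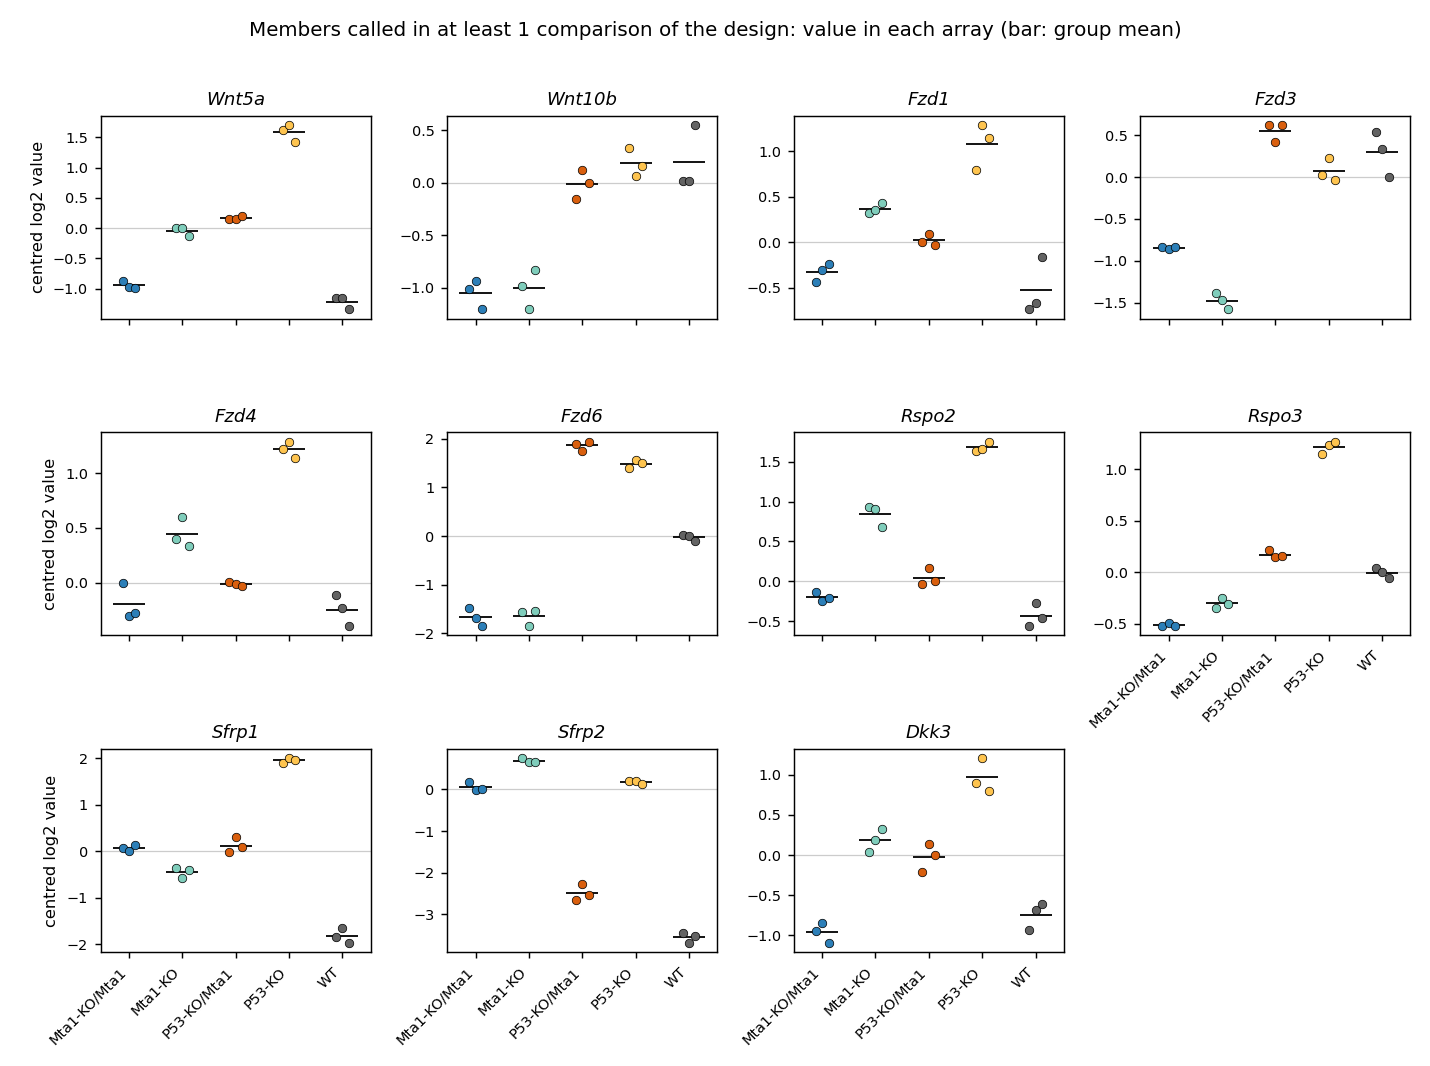
Centred log2 value (vertical axis, a separate scale for each gene) of each array, as a point, and the mean of 3 arrays, as a bar, for the 11 members called in at least 1 comparison of the design. In P53-KO, Wnt5a, Fzd1, Fzd4, Rspo2, Rspo3, Sfrp1 and Dkk3 reach their highest values, while Sfrp2 is highest in Mta1-KO, Fzd6 in P53-KO/Mta1, and Wnt10b, Fzd3 and Fzd6 are low in both Mta1-KO groups.

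The 250 bases before the annotated start are shown for Sfrp2, Fzd4 and Fzd1, since these fell together in P53-KO/Mta1 and are those of the 7 members called there that had an entry in the promoter table (RefSeq, GRCm38.p6). In all, 29 of the 45 members had an entry. Of these, 5 held the TCF/LEF core in any of their promoters, 1 the AP-1 motif, 23 the GC box and 10 the CCAAT box. These are counts of genes, while the shares of all promoters given below count each promoter. Capitals mark matches, on either strand, to the TCF/LEF core CTTTGA, the AP-1 motif TGANTCA, the GC box GGGCGG or the CCAAT box, some of which overlap. The window of Sfrp2 is chr3:83766071-83766320 on the plus strand, that of Fzd4 chr7:89404116-89404365 on the plus strand and that of Fzd1 chr5:4758217-4758466 on the minus strand.
Sfrp2: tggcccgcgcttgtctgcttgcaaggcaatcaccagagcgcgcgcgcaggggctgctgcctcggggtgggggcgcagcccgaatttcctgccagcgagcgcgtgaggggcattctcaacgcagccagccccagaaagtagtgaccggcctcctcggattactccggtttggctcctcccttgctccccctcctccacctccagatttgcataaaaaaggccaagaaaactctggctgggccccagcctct
Fzd4: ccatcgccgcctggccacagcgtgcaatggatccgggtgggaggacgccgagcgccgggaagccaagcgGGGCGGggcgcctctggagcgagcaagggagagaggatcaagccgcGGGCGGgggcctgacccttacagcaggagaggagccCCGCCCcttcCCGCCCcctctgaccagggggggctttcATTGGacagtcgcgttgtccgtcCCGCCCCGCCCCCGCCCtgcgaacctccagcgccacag
Fzd1: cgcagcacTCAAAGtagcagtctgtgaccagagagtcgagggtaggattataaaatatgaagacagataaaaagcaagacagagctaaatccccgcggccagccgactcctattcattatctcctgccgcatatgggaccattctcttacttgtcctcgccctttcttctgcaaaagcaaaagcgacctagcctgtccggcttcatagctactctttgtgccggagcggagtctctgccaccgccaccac
The Sfrp2 window (63.6% G or C) held none of these letters, the Fzd4 window (72.8%) held 7 GC boxes and 1 CCAAT box, and the Fzd1 window (51.2%) held 1 TCF/LEF core, which starts 242 bases before the gene's start. Of 32851 promoters of the same length, 13.8% held the TCF/LEF core, 6.75% the AP-1 motif, 32.7% the GC box and 33.8% the CCAAT box. A match is a description of the letters and not a binding site.

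Rspo2 and Rspo3, R-spondins that keep Frizzled receptors at the cell surface, were both lower with over-expressed Mta1 in the absence of P53. Rspo2 read -0.03, 0.17 and 0.00 in P53-KO/Mta1, against 1.64, 1.66 and 1.75 in P53-KO, a 3.11-fold fall (log2 fold change -1.64, standard error 0.084, adjusted p = 6.85e-09). It was the single member called in all 3 comparisons of the design. In Mta1-KO it read 0.93, 0.90 and 0.69, against -0.56, -0.27 and -0.46 in WT, and stood 2.41-fold above WT (adjusted p = 1.69e-08). In Mta1-KO/Mta1 it read -0.13, -0.25 and -0.21, a 2.05-fold fall from Mta1-KO (log2 fold change -1.04, standard error 0.084, adjusted p = 9.04e-07), and lay between the Mta1-KO and the WT arrays. That fall was just above a fold of 2 and was -0.99 without Mta1-KO replicate 1 (adjusted p = 1.13e-05). The Mta1-KO arrays enter both comparisons.

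Rspo3 was called in the P53-KO MEFs but not in the Mta1-KO MEFs. It read 0.21, 0.14 and 0.16 in P53-KO/Mta1, against 1.15, 1.23 and 1.27 in P53-KO, a 2.06-fold fall (adjusted p = 1.88e-09) with the narrowest error of the called members (standard error 0.048). Quantile normalization brought it to -0.92 on the log2 scale (adjusted p = 2.15e-07), under a fold of 2. Between Mta1-KO and WT it differed by -0.30 and between Mta1-KO/Mta1 and Mta1-KO by -0.21, with adjusted p of 0.000139 and 0.00379. Rspo1 and Rspo4 were called in no comparison, and their group means spanned 0.296 and 0.181 on the log2 scale.

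Among the DKK genes, Dkk3 was the member that changed. Dkk3 encodes the most divergent DKK protein, which is not known to block LRP5 and LRP6 as DKK1 does. It read -0.94, -0.85 and -1.09 in Mta1-KO/Mta1, against 0.04, 0.19 and 0.32 in Mta1-KO, and fell 2.21-fold (log2 fold change -1.14, standard error 0.123, adjusted p = 1.18e-05). In WT it read -0.94, -0.69 and -0.60, so that the Mta1-KO/Mta1 arrays overlapped the WT arrays. The log2 difference between Mta1-KO and WT was 0.93 (adjusted p = 2.52e-05). In P53-KO/Mta1 it read -0.21, 0.14 and 0.00, against 0.90, 1.20 and 0.80 in P53-KO, a log2 difference of -0.99 (adjusted p = 3.20e-05) that lay next to the threshold of 1 and passed it in 4 of the 6 fits that left out 1 of these arrays. The remaining inhibitors, Sfrp4, Sfrp5, Frzb, Wif1, Dkk2 and Dkk4, were called nowhere. The largest span of group means among them was 0.462, for Dkk2.

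Of the 19 WNT ligands, Wnt5a was called in 3 comparisons, P53-KO/Mta1 against P53-KO, Mta1-KO against WT and P53-KO against WT. It encodes a ligand best known for signalling outside the β-catenin branch, in cell movement and polarity. It read 0.15, 0.14 and 0.20 in P53-KO/Mta1, against 1.61, 1.71 and 1.43 in P53-KO, a 2.67-fold fall (log2 fold change -1.42, standard error 0.074, adjusted p = 8.16e-09). In Mta1-KO it read 0.00, 0.01 and -0.13, against -1.15, -1.15 and -1.34 in WT, a 2.26-fold rise (adjusted p = 1.00e-08) that was 0.94 on the log2 scale with quantile normalization. In Mta1-KO/Mta1 it read -0.87, -0.97 and -0.99, which lies between Mta1-KO and WT. That log2 difference from Mta1-KO was -0.91 (95% interval -1.07 to -0.745, adjusted p = 9.68e-07), and -1.16 with quantile normalization. P53-KO was 6.95-fold above WT, so the order of Wnt5a, high to low, was P53-KO, P53-KO/Mta1, Mta1-KO, Mta1-KO/Mta1 and WT, with no overlap between the arrays of neighbouring groups.

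Wnt10b, a ligand known for holding back fat cell formation and promoting bone, went the other way in Mta1-KO. It read -0.98, -1.20 and -0.83 in Mta1-KO, against 0.02, 0.02 and 0.55 in WT, a 2.30-fold fall (log2 fold change -1.20, standard error 0.140, adjusted p = 6.93e-06). The values of -1.01, -0.93 and -1.20 in Mta1-KO/Mta1 overlapped those of Mta1-KO, and the log2 difference was -0.04 (95% interval -0.346 to 0.259). In P53-KO/Mta1 Wnt10b read -0.16, 0.12 and 0.00, and in P53-KO 0.33, 0.06 and 0.16, close to WT. Wnt1, the gene next to Wnt10b on chromosome 15, differed by 0.09 between Mta1-KO and WT and was called nowhere. Wnt5b was the other ligand called in P53-KO against WT, where it stood 2.53-fold above WT (adjusted p = 9.02e-07), and in P53-KO/Mta1 against P53-KO its log2 difference was -0.61 (adjusted p = 0.00327). Wnt5b averaged -0.25 ± 0.17 in Mta1-KO/Mta1, -0.11 ± 0.22 in Mta1-KO, 0.44 ± 0.09 in P53-KO/Mta1, 1.05 ± 0.16 in P53-KO and -0.29 ± 0.24 in WT (SD, n = 3 each). The other 16 ligands were called nowhere. Their group means spanned 0.0849 for Wnt2, the narrowest of all members, to 0.802 for Wnt4.

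Fzd3 and Fzd6, whose proteins act in planar cell polarity, were the receptors called in Mta1-KO against WT, and both were lower. Fzd3 read -1.38, -1.47 and -1.58 in Mta1-KO, against 0.54, 0.34 and 0.00 in WT, a 3.42-fold fall (log2 fold change -1.77, standard error 0.114, adjusted p = 1.26e-08). It read -0.83, -0.86 and -0.84 in Mta1-KO/Mta1, higher than in Mta1-KO by 0.64 (adjusted p = 0.000775) and still below each WT array. Fzd6 read -1.57, -1.84 and -1.54 in Mta1-KO, against 0.02, 0.00 and -0.11 in WT, a 3.08-fold fall (log2 fold change -1.62, standard error 0.099, adjusted p = 6.68e-09). Its values of -1.48, -1.69 and -1.85 in Mta1-KO/Mta1 overlapped those of Mta1-KO. In the P53-KO MEFs Fzd6 stood on the other side of WT, with 1.90, 1.76 and 1.94 in P53-KO/Mta1 and 1.39, 1.57 and 1.5 in P53-KO. P53-KO was 2.86-fold above WT (adjusted p = 9.81e-09), and P53-KO/Mta1 was above P53-KO by 0.38 (adjusted p = 0.00891), or by 1.14 with quantile normalization (adjusted p = 7.73e-07). That scaling thus turned a change under a fold of 2 into a call, and made the difference between the backgrounds -1.26, beside -0.41 as deposited.

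Fzd4 and Fzd1 fell with over-expressed Mta1 in P53-KO MEFs. Fzd4, which also binds the non-WNT ligand norrin, read 0.00, -0.02 and -0.03 in P53-KO/Mta1, against 1.22, 1.29 and 1.14 in P53-KO, a 2.34-fold fall (log2 fold change -1.23, standard error 0.093, adjusted p = 3.22e-07). Fzd1 read 0.00, 0.08 and -0.03 in P53-KO/Mta1, against 0.80, 1.29 and 1.14 in P53-KO, a 2.08-fold fall (log2 fold change -1.06, standard error 0.138, adjusted p = 4.77e-05). The Fzd1 call was lost with quantile normalization (-0.95) and without P53-KO replicate 2 (-0.95, adjusted p = 0.000291). Fzd8 (-0.90, adjusted p = 3.60e-06) and Lrp6 (-0.42, adjusted p = 0.00195) were lower by less than a fold of 2. Fzd3 differed by 0.48 in the other direction.

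Receptors made up 6 of the 13 members that were higher in P53-KO than in WT. Their folds over WT were 3.04 for Fzd1, 2.97 for the co-receptor Lrp5, 2.86 for Fzd6, 2.76 for Fzd4, 2.75 for Fzd8 and 2.57 for Fzd7. Fzd7, Fzd8 and Lrp5 were called in that comparison alone. Fzd7 averaged -0.06 ± 0.13 in Mta1-KO/Mta1, -0.45 ± 0.14 in Mta1-KO, 0.43 ± 0.10 in P53-KO/Mta1, 0.72 ± 0.09 in P53-KO and -0.65 ± 0.14 in WT (SD, n = 3 each, also for the next means). Fzd8 averaged -0.39 ± 0.23 in Mta1-KO/Mta1, 0.32 ± 0.03 in Mta1-KO, 0.01 ± 0.07 in P53-KO/Mta1, 0.90 ± 0.08 in P53-KO and -0.55 ± 0.03 in WT. Lrp5 averaged -0.75 ± 0.13 in Mta1-KO/Mta1, -0.01 ± 0.06 in Mta1-KO, 0.29 ± 0.11 in P53-KO/Mta1, 0.65 ± 0.05 in P53-KO and -0.92 ± 0.15 in WT. All 3 had their highest mean in P53-KO and their lowest in WT. Fzd1, Fzd4, Fzd8 and Lrp5 also stood above WT in Mta1-KO, by 0.89, 0.69, 0.87 and 0.91 on the log2 scale, and below Mta1-KO in Mta1-KO/Mta1, with log2 differences of -0.70, -0.64, -0.71 and -0.74, with the adjusted p of these 8 values between 5.66e-07 and 0.00154 and none at a fold of 2. The comparisons share the Mta1-KO arrays. Without WT replicate 3, whose Fzd1 value of -0.17 lay above the other WT arrays at -0.74 and -0.67, the Fzd1 difference between Mta1-KO and WT was 1.07 and was called. WT replicate 3 was also the highest WT array for other members, such as Wnt6 (-0.46, -0.43 and 0.00) and Wnt10a (-0.76, -0.65 and -0.02). It was so for Fzd5 (-0.77, -0.72 and -0.26) too, but not for Fzd4 (-0.12, -0.23 and -0.40). Both comparisons with WT use that array. Fzd2 and Fzd10 were called nowhere, with group means that spanned 0.340 and 0.246. Fzd5 and Lrp6 were not called either, though P53-KO exceeded WT by 0.82 and 0.56 (adjusted p = 0.000136 and 6.18e-05).

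**Figure D4:**
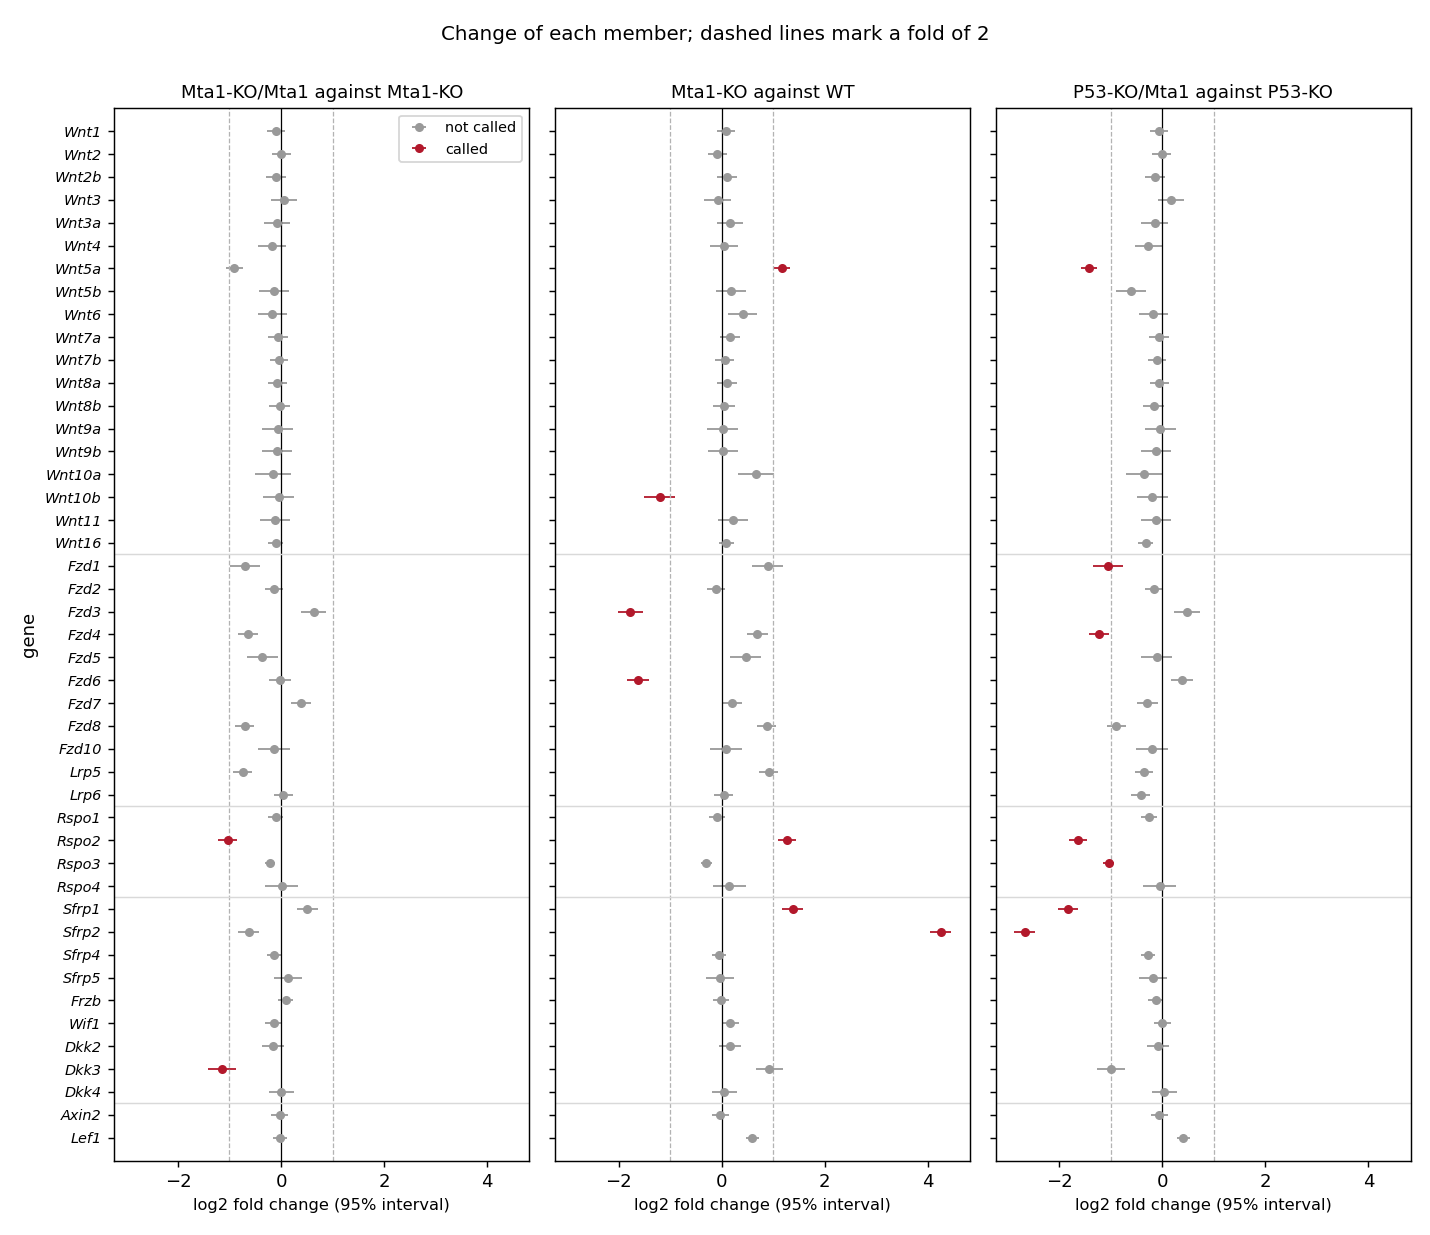
Log2 fold change (horizontal axis, the same scale in each panel) with its 95% interval for the 45 members, by role from ligands at the top to response genes at the bottom, in Mta1-KO/Mta1 against Mta1-KO, Mta1-KO against WT and P53-KO/Mta1 against P53-KO. Red points are called and dashed lines mark a fold of 2. The 7 red points of the right panel all lie to the left of 0, while in the middle panel 4 lie to the right and 3 to the left.

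Axin2, a target whose RNA is a common readout of β-catenin signalling, differed little between groups. It read 0.07, 0.00 and 0.00 in P53-KO/Mta1, against 0.14, 0.00 and 0.12 in P53-KO, and -0.13, 0.00 and 0.02 in Mta1-KO, against -0.18, -0.02 and 0.17 in WT. The arrays of these groups overlapped. The log2 fold change was -0.06 in P53-KO/Mta1 against P53-KO (95% interval -0.227 to 0.10) and -0.03 in Mta1-KO against WT (95% interval -0.191 to 0.137). These intervals exclude a fold of 2 in the array value. Since the values hold no level, whether Axin2 RNA was detected at all is not known. Lef1, a nuclear partner of β-catenin, read -0.02, -0.03 and 0.00 in Mta1-KO, against -0.60, -0.67 and -0.56 in WT, a log2 difference of 0.59 (adjusted p = 1.43e-06). It read 0.34, 0.42 and 0.51 in P53-KO/Mta1, against 0.00, 0.04 and 0.00 in P53-KO, higher by 0.41 (adjusted p = 0.000127). Lef1 was thus among the 5 members with a positive value in that comparison, and it had the widest span of group means (1.03) among the members that were not called.

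Beyond the members, 66 of 75 other WNT pathway genes had a row, from secretion and surface proteins to β-catenin regulators and targets. This list, too, was chosen with earlier results of these data known. In P53-KO against WT, 16 (24.2%) were higher and 3 (4.55%) lower, beside 4.87% and 7.26% of all rows. The falls were all among the 13 targets, of which 3 were higher and 3 lower. Of 18 upstream and surface genes 6 were higher and 0 lower, and of 35 intracellular and polarity genes 7 were higher and 0 lower. In P53-KO/Mta1 against P53-KO, 0 were higher and 2 (3.03%) lower, beside 0.394% and 1.22% of all rows. In Mta1-KO against WT, 6 (9.09%) were higher and 2 (3.03%) lower, beside 4.23% and 2.41% of all rows. With Mta1 put back into Mta1-KO, 0 were higher and 1 (1.52%) lower, beside 0.322% and 0.788% of all rows. Ccn5 (also called Wisp2), a secreted matrix-associated protein first described as induced by WNT1, read -1.06, -0.85 and -0.82 in P53-KO/Mta1, against 0.93, 0.75 and 1.10 in P53-KO, a 3.58-fold fall (adjusted p = 6.22e-08). It was also 2.21-fold lower in Mta1-KO/Mta1 than in Mta1-KO (adjusted p = 7.65e-06) and in Mta1-KO stood 4.04-fold above WT (adjusted p = 4.24e-09). The glypican Gpc4, a surface heparan sulfate proteoglycan, read -0.22, 0.03 and -0.10 in P53-KO/Mta1, against 0.98, 1.05 and 1.03 in P53-KO, a 2.16-fold fall (adjusted p = 3.40e-08), and did not fall in Mta1-KO/Mta1, where it read 0.12, 0.00 and 0.02 against 0.07, -0.05 and -0.13 in Mta1-KO. The difference between these responses was 1.20 on the log2 scale (adjusted p = 1.26e-06). Gpc4 was among 2 of the 66 pathway genes (3.03%) with a positive difference past both thresholds, and 0 had a negative one. Of all rows 0.979% and 0.651% did. Dact2, which binds Dishevelled, and the transcription factors Jun and Twist1 were higher in both Mta1-KO and P53-KO than in WT, by 1.36 and 1.67, 1.45 and 1.40, and 1.17 and 1.27 on the log2 scale. Id2, an inhibitor of bHLH factors, and the receptor Tnfrsf19 were lower in both, by -1.13 and -1.54 and by -1.47 and -1.21. Nfatc4, a factor of calcium signalling, was 3.39-fold higher in P53-KO than in WT. The adjusted p of the changes of Dact2, Jun, Twist1, Id2, Tnfrsf19 and Nfatc4 were between 1.65e-10 and 2e-07, and Mta1-KO and P53-KO share the WT arrays they are set against.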

How the data were processed

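RNA of 15 samples in 5 groups of 3 was measured on whole-gene exon arrays. The authors used GeneSpring GX and deposited normalized log2 values, centred by row (the largest absolute row median was 0), which keep no signal level, so no detection limit and no filter on dim probes could be used and only the number of arrays limits the precision that can be stated. The sources used here do not state how exon probes were summarized, nor a scan batch. By the paper, the comparison of WT and Mta1-KO had been reported before and those earlier data were used again. Whether these arrays were run together with the others is not stated. Gene names came from GEO's platform annotation; 45 of 45 members matched the RefSeq table by Entrez ID with the same symbol. Rows with several genes (1019) or none (740) were tested but named no gene.

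A model with a mean per group was fitted to all rows with limma 3.58.1 in R 4.3.3 (10 residual and 3.46 prior degrees of freedom), and p-values were adjusted by Benjamini-Hochberg over all 16755 rows. Calls needed a fold of 2 or more with an adjusted p under 0.05, as in the methods. The scripts were tested on simulated data. Members called in a comparison of the design are named with every array, others with differences or spans; of the other pathway genes, up to 8 that were called most often are named. Members and lists were chosen with earlier results of these data known. As alternatives, the values were tested by the methods' t-test and by limma on the compared groups only, and by limma after quantile normalization or centring of each array, with no minimum fold, with trend and robust settings, with the replicate number as a block, with 1 row per gene, and without each array in turn. Promoters came from RefSeq (GRCm38.p6), and motifs were searched with Python 3.11.15; plots used matplotlib 3.10.9.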

Additional observations from a re-analysis of the deposited data

Results flagged for a closer look

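Sfrp1 and Sfrp2 answered added Mta1 differently in the Mta1-KO and the P53-KO MEFs, by the test of the difference itself. For Sfrp1 the log2 difference of the responses was 2.34 (95% interval 2.06 to 2.63, adjusted p = 4.32e-08 from limma). The response was 0.51 in Mta1-KO/Mta1 against Mta1-KO, with all 3 arrays higher, and -1.83 in P53-KO/Mta1 against P53-KO, with all 3 arrays lower. For Sfrp2 the log2 difference was 2.05 (95% interval 1.77 to 2.32, adjusted p = 1.35e-07), between a response of -0.63 and one of -2.67, with all 3 arrays lower in each. In the 17 alternative fits the difference ran from 2.27 to 2.43 for Sfrp1 and from 1.96 to 2.51 for Sfrp2, and both stayed called in each. The Mta1 row changed by -0.17 for Mta1-KO/Mta1 over Mta1-KO and by 0.27 in P53-KO/Mta1 against P53-KO. The part of this, of the embryonic age and of the origin of the MEFs in the difference was not tested.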

How the results depend on the processing

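Of 382 refits of the 31 called member values, 376 kept the call, 6 lost the minimum fold and 0 changed direction. The 6 were Wnt5a (0.94) and Sfrp1 (0.79) in Mta1-KO against WT and Rspo3 (-0.92) and Fzd1 (-0.95) in P53-KO/Mta1 against P53-KO with quantile normalization, Rspo2 (-0.99) in Mta1-KO/Mta1 against Mta1-KO without Mta1-KO replicate 1, and Fzd1 (-0.95) in P53-KO/Mta1 against P53-KO without P53-KO replicate 2; the cause was not tested. With no minimum fold the count of members past the threshold was 17 in place of 7 in Mta1-KO against WT, 12 in place of 2 in Mta1-KO/Mta1 against Mta1-KO, 19 in place of 7 in P53-KO/Mta1 against P53-KO, 10 in place of 2 for the difference of the responses and 26 in place of 13 in P53-KO against WT. Leaving out 1 array gave 1 to 2 members in Mta1-KO/Mta1 against Mta1-KO, 7 to 8 in Mta1-KO against WT and 6 to 8 in P53-KO/Mta1 against P53-KO. With the replicate number as a block (replicate block) the counts stayed at 7, 2, 7, 2 and 13. The deviations of same-numbered arrays from their group means correlated at -0.379 to 0.423. These values have both signs and were not set against arrays of different number, so whether the numbers pair the arrays stayed unsettled. The methods' t-test, at its adjusted threshold, gave 7, 2, 7 and 13 members in the comparisons between groups. Dim probes could not be filtered, since centred values hold no level, so that alternative was not run.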
